A study of Mus musculus with 16 samples.

Results

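The kidney comparison described here set mice fasted for 24 h against fed mice, with 1 RNA-Seq library in each condition, which makes 2 of the 16 libraries of the series. Its libraries were picked by their tissue and treatment labels. Male C57BL/6 mice bought at 12 weeks of age were either deprived of food for 24 h (Fasting) or kept on food without a break (Fed), with no engineered allele named in the labels. Kidney tissue of 3 mice per condition was pooled in equal parts before RNA extraction, so each library gives the average of a pool and no spread between animals can be computed. The same design was run in 7 other tissues (muscle, liver, white and brown adipose tissue, heart, spleen and lung), which serve below only to show where kidney differed. The question was how the transcriptome of the kidney changes over a day without food.

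The kidney is, with the liver, a gluconeogenic organ, and in fasting the cells of its proximal tubule oxidize fatty acids for energy and make glucose from lactate and glutamine. Fatty acids released from adipose tissue activate PPAR-alpha, a nuclear receptor that switches on genes of fatty acid oxidation and ketone body synthesis and that is abundant in proximal tubule. Falling insulin and rising glucagon and glucocorticoid act in parallel, through FoxO factors, cyclic AMP and the glucocorticoid receptor, and less processing of the sterol-sensing SREBP factors lowers lipid synthesis. Along the nephron, later segments recover calcium, magnesium, sodium and water, so that the balance of minerals and water is also set here.

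The fed library held 22446554 counts and the fasting library 25776551, and 16033 of the 27888 genes with a count in kidney reached 1 CPM (counts per 1000000 counts of the library) in at least 1 of the 2. Levels are given as CPM on the library totals, and a fold change is the log2 ratio of fasting to fed after adding 0.01 CPM. Each is followed where it matters by a 95% counting interval, which covers counting error only and says nothing of how mice differ. A gene was called when a two-sided Fisher's exact test of its counts gave p below 0.01 and the log2 fold change was beyond 0.5 in either direction. That test compares these 2 libraries and not the conditions, and "rose" and "fell" below are used of called genes only. Values in parentheses are log2 fold changes, followed for the leading genes by the bounds of the counting interval. In all, 1867 genes were called, of which 772 rose and 1095 fell, or 2.77% and 3.93% of the genes with a count. Among genes at 1 CPM or more the shares were 4.48% and 6.23%, and these are the background for the gene groups below. The split of calls moved with the scaling: 41.3% of the called genes rose on library totals, 50.3% with TMM factors and 54.8% with DESeq2 size factors. In the same order, genes at 1 CPM or more had medians of -0.06, -0.01 and 0.02 on the log2 scale. A stricter call, which allows for an assumed coefficient of variation of 0.2 between samples (edgeR's exact test), kept 173 genes that rose, 0.62% of the genes with a count, and 194 that fell, 0.696%.

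**Figure D1:**
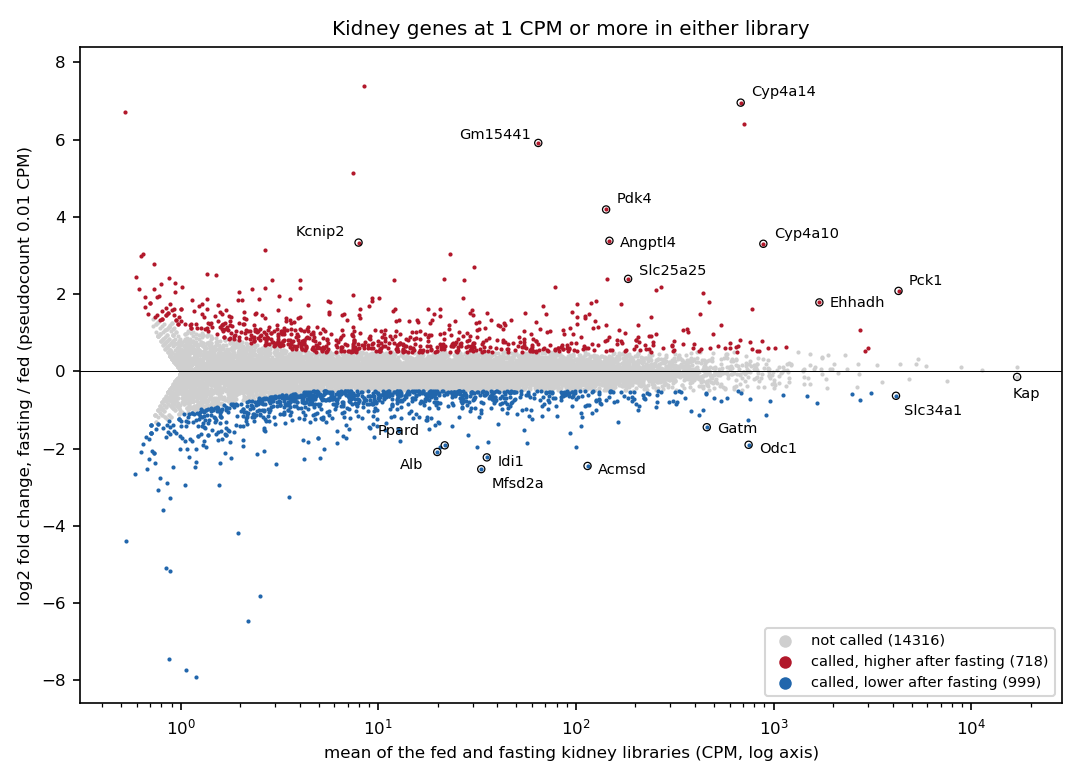
Log2 fold change (fasting over fed) against mean level in CPM on a log axis for the 16033 genes at 1 CPM or more in either kidney library, with called genes in colour and named genes circled. The kidney marker Kap lies near 0 at the right, whereas Cyp4a14 stands above 6 on the log2 scale.

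The defining markers of kidney were high in both libraries. Kap, the kidney androgen-regulated protein of the proximal tubule, was at 17943 CPM in Fed and 16229.9 CPM in Fasting, against at most 38.7 CPM in any other fed tissue. Slc34a1, the sodium-phosphate cotransporter of the proximal brush border, was at 5066 and 3266 CPM, against at most 7.38 CPM elsewhere. Of the markers of the neighbouring adrenal gland, Star, the steroidogenic cholesterol carrier, was at 2.18 CPM in Fed and 2.33 CPM in Fasting, and the others were at or near 0, with no count for Cyp11b1, Cyp11b2, Cyp21a1, Th or Dbh in either library. Of the 6 pancreatic markers 5 were under 0.2 CPM in both libraries, and Cela1, an elastase gene, fell from 58.1 to 22.8 CPM (-1.35), while the 6 neutrophil markers reached at most 0.535 CPM. Hepatocyte markers differed between the libraries in both directions, with 4 of 6 lower, 1 higher and 1 not called. Alb, the gene of serum albumin, had 723 counts (32.2 CPM) in Fed and 195 (7.57 CPM) in Fasting, beside 63761 CPM in the fed liver. Fgb, a fibrinogen chain, was at 7.62 and 2.29 CPM, and Apoa1, the main protein of high-density lipoprotein, at 3.61 and 1.59 CPM. Serpina1c, an antitrypsin gene, went the other way, from 31 to 98 counts (1.45). The hepatic genes Ahsg, Cyp3a11 and Cps1 were chosen after their values were seen, for being low in the fasting library: 4.32, 4.95 and 2.41 CPM in the fed kidney against 0.0388, 0.0776 and 0 CPM in the fasting kidney. Of 5 brown adipocyte markers 3 rose and none fell. Ucp1 and Cidea went from 0.579 to 2.13 CPM and from 0.936 to 4.89 CPM, beside 3132 and 1838 CPM in fed brown adipose tissue. Ppara, the other that rose, was far higher in kidney, at 86.9 and 131 CPM. Elovl3 (0 and 6 counts) and Dio2 (7 and 5 counts, -0.66) were not called. Of 6 white adipocyte markers, Lep, the gene of leptin, fell from 39 to 11 counts and Plin1 fell (-0.66), Cidec rose (1.07), and the others were not called. The part of these traces in the changes below was not tested.

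The largest response belonged to genes of fatty acid use. Of 22 PPAR-alpha targets, 19 rose and none fell, with a median log2 fold change of 1.78 against -0.06 for all genes at 1 CPM or more, and 15 of the 19 also passed the stricter call. Cyp4a14, a fatty acid omega-hydroxylase, rose from 10.9 to 1354 CPM (log2 fold change 6.96, 6.78 to 7.15). It was thus a minor transcript of the fed library and among the abundant ones of the fasting library.

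Further members of the Cyp4a cluster moved with Cyp4a14. Cyp4a10 rose from 163 to 1613 CPM (3.30), Cyp4a31 from 95.1 to 412 CPM (2.11) and Cyp4a32 from 0.401 to 14.4 CPM (5.14). Cyp4a12b rose from 7.26 to 18.2 CPM, while its near copy Cyp4a12a was at 75.3 and 74.0 CPM (log2 fold change -0.03). These genes are close paralogs, and reads that fit more than 1 copy may have been lost or split in counting. The acyl-CoA thioesterases, which free fatty acids from coenzyme A, form a second such cluster on chromosome 12: Acot1 rose from 46.3 to 242 CPM, Acot2 from 28.3 to 129 CPM and Acot3 from 8.15 to 52.6 CPM.

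Pdk4, the kinase that shuts pyruvate dehydrogenase and so spares glucose, rose from 14.7 to 269.7 CPM (log2 fold change 4.19, 4.03 to 4.36). Angptl4, a secreted inhibitor of lipoprotein lipase, rose from 25.9 to 269.7 CPM (3.38). Vnn1, the pantetheinase that feeds coenzyme A turnover, rose from 97.1 to 439.5 CPM, and Plin2, the coat protein of lipid droplets, from 77.8 to 261 CPM. Slc25a20, the carrier of acylcarnitine into mitochondria, rose from 48.6 to 142 CPM and the uncoupling protein homologue Ucp2 from 46.8 to 156 CPM. At low level, Creb3l3, a membrane-bound transcription factor of lipid metabolism, went from 10 to 66 counts and Ucp3 from 7 to 28. Fabp3, a cytosolic fatty acid carrier, was at 51.4 and 50.3 CPM and was not called. Fgf21, the fasting hormone of the liver, had 0 counts in Fed and 1 in Fasting, both under the floor of 3 counts, so that no fold can be given. Ppara, the receptor gene itself, rose from 86.9 to 131 CPM (0.59), whereas Ppard, its relative PPAR-delta, fell from 34.3 to 9.08 CPM (-1.92, -2.14 to -1.71).

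Beta-oxidation genes outside the PPAR-alpha list had a smaller median change. Ehhadh, Acaa1b, Cpt1a and Acadm are counted with the PPAR-alpha targets above. Of the 23 other genes of mitochondrial and peroxisomal beta-oxidation, 16 rose and none fell, with a median log2 fold change of 0.71, and 5 passed the stricter call. In peroxisomes, where very long chains are shortened, the bifunctional enzyme Ehhadh rose from 768 to 2645 CPM (1.78) and the thiolase Acaa1b from 172 to 704 CPM (2.03). Ehhadh and Cyp4a10 were, with Pck1, among the 5 called genes with the largest gains in CPM. In mitochondria, Cpt1a, the gatekeeper of fatty acid entry, rose from 562 to 952 CPM (0.76) and Cpt2, its partner at the inner membrane, from 125 to 286 CPM (1.19). Acsl1, which activates long-chain fatty acids, rose from 329 to 757 CPM, and the auxiliary isomerases and reductases Eci1, Eci2, Decr1 and Decr2 had log2 fold changes of 1.44, 1.08, 1.06 and 1.22. Acadm, Acadl and Acadvl, the dehydrogenases of medium, long and very long chains, rose by 0.62, 0.75 and 0.72 on the log2 scale. The short-chain and branched-chain enzymes Acads, Acadsb and Echs1 stood at 0.00, 0.00 and -0.06 and were not called. Hadhb, a subunit of the long-chain trifunctional protein, missed the fold threshold at 0.48. A pair of genes of ketone body use was not called: Oxct1, the enzyme that commits ketone bodies to oxidation, was at 1589.9 and 1259.8 CPM, and Bdh1 was at a log2 fold change of 0.10. Of the ketone body carriers, Slc16a1 rose (0.62) and Slc16a7 fell (-0.61).

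**Figure D2:**
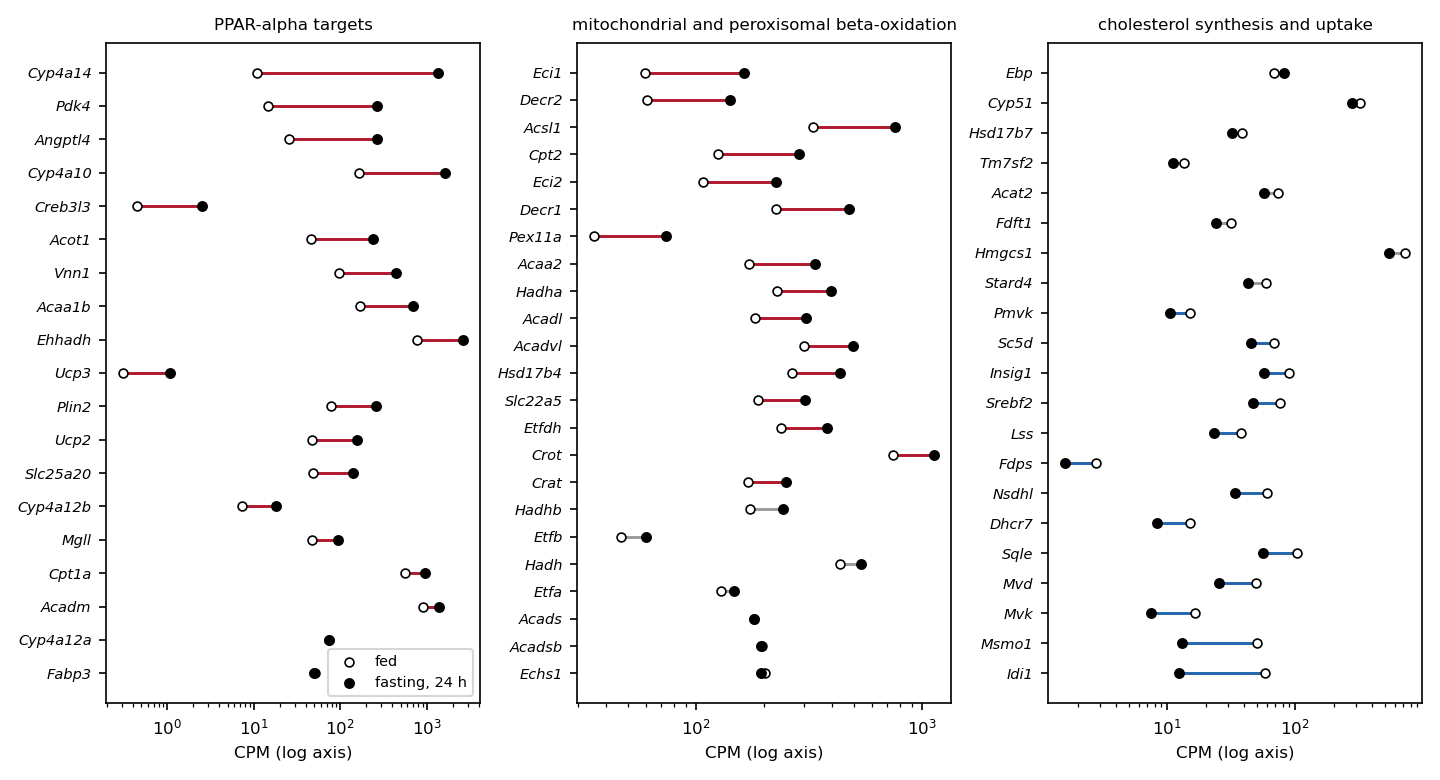
Level in CPM on a log axis in the fed (open) and fasting (filled) kidney library for members of the PPAR-alpha target, beta-oxidation and cholesterol lists that reached 0.3 CPM in either library, with lines red where called up, blue where called down and grey otherwise. Cyp4a14 makes the longest crossing, while the cholesterol genes drawn, Ebp excepted, lie to the left of their fed level.

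PPAR-alpha binds as a pair with RXR to a direct repeat of 2 short sites spaced by 1 base (DR1), here AGGTCANAGGTCA. Promoter windows of 300 bases, from 250 before to 50 after each start, were read from RefSeq on GRCm38.p6 and searched on both strands with up to 2 mismatches; 14 of the 22 PPAR-alpha targets had a window. A match was found for 4 of the 14, against 4.4% of all 27025 genes with a window (3.86% of 32851 windows). They were Plin2, Slc25a20, Creb3l3 and Ucp3, and each of the 4 rose in kidney, as did 19 of all 22 targets, with or without a match. The sites in Creb3l3 (chr10:81092542-81092841, minus strand) and Ucp3 (chr7:100472741-100473040, plus strand) read AGGGGAGAGGTCA and AGGTTTCAGGTCA. The windows of the pair with the highest levels, Plin2 (chr4:86670010-86670309, minus strand) and Slc25a20 (chr9:108661886-108662185, plus strand), are shown with the matched bases in capitals.
Plin2: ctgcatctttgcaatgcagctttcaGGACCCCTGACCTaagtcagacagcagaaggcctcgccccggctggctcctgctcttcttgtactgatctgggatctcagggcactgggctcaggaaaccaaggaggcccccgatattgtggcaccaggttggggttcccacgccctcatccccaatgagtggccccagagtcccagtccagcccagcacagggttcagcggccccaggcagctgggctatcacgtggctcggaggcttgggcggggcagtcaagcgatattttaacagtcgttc
Slc25a20: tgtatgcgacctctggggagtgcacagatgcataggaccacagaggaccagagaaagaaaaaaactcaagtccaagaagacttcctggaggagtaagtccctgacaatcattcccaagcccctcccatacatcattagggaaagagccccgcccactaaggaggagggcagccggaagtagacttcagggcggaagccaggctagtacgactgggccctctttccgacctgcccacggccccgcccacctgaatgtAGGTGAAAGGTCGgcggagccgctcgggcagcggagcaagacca
Among the 19 beta-oxidation genes with a window, 2 held a match, Echs1 and Etfa, and neither was called. A match is a description of letters in a short window and not evidence of binding.

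Few genes of glucose production were called. Of 14 gluconeogenic genes, 2 rose and none fell (median 0.10). Pck1, the cytosolic phosphoenolpyruvate carboxykinase that commits carbon to glucose, was counted 36771 times in Fed and 178929 times in Fasting, or 1638 and 6942 CPM. Its log2 fold change of 2.08 (2.07 to 2.10) was the largest gain in CPM of any called gene in the kidney. Pcx, pyruvate carboxylase, rose from 803 to 1221 CPM (0.60). The genes of the last steps did not reach the call on library totals: G6pc, the glucose-6-phosphatase that releases glucose, was at 415 and 572 CPM (0.46), and Fbp1, fructose-1,6-bisphosphatase, at 915 and 952 CPM (0.06). With TMM factors or DESeq2 size factors 4 of the 14 were called up in place of 2. The promoter of Pck1 is known for a cyclic AMP response element, and its window (GRCm38.p6 chr2:173152823-173153122, plus strand) held the 8 letters TTACGTCA, here in capitals, 93 bases before the start. The same letters, on either strand, were in 0.499% of all windows and in the window of no other of the 13 gluconeogenic genes that had one.
Pck1: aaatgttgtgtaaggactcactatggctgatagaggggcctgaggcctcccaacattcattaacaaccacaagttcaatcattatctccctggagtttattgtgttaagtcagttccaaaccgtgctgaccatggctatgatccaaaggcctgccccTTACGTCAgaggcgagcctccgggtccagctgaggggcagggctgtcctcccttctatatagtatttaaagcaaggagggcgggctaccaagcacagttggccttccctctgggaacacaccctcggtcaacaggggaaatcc

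Part of the carbon for renal glucose comes from glutamine, whose breakdown also yields the ammonia that buffers acid in urine. Slc38a3, the basolateral glutamine carrier SNAT3, rose from 54.1 to 184 CPM (1.77, 1.68 to 1.86), and Glud1, glutamate dehydrogenase, from 478 to 731 CPM (0.61). Of the 16 genes of glutamine use and ammonia excretion, 2 rose and 3 fell, the latter being the exchanger subunit gene Slc7a7 (-0.53) and the carbonic anhydrases Car4 (-0.68) and Car12 (-0.52); only 1 of the 3 was still called with TMM factors. Slc25a25, the mitochondrial carrier of ATP-Mg and phosphate, rose from 58.7 to 309 CPM (2.39). Of 18 glycolysis genes 1 rose, Pklr at 0.71, none fell, and the list's median was -0.06 on library totals and between that and 0.02 under the other scalings.

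Genes known to respond to glucocorticoid formed a second group of rises. Of 20, 15 rose and 1 fell, with a median of 0.89, and 8 passed the stricter call. Zbtb16, the transcription factor PLZF, rose from 8.78 to 45.4 CPM (2.37). Sgk1, the kinase that raises sodium uptake in the distal nephron, rose from 56.0 to 198 CPM (1.82, 1.74 to 1.91). Tsc22d3, the anti-inflammatory factor GILZ, rose from 36.8 to 104 CPM, and Per1, a clock gene with a glucocorticoid response element, from 21.1 to 53.1 CPM. Errfi1, a brake on EGF receptor signalling, had the highest CPM of the called members and rose from 515 to 809 CPM (0.65). Hif3a went from 29 to 129 counts, and Fkbp5, the receptor's co-chaperone, rose by 0.53. Klf9, Klf15 and the metallothioneins Mt1 and Mt2 had log2 fold changes of 0.32, 0.30, 0.14 and 0.11 and were not called. The exception was Tat, tyrosine aminotransferase of the liver, with 9 counts in Fed and 1 in Fasting; it stood at 839.6 CPM in the fed liver.

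Insulin and FoxO signalling genes showed a narrower response, with 6 of 22 rising and 1 falling (median 0.23). Depp1, a FoxO target, rose from 4.99 to 41.0 CPM (3.04). Txnip, the arrestin-like protein that limits glucose uptake, rose from 385 to 1178 CPM (1.61). Gm15441, transcribed from the opposite strand across Txnip, rose from 2.09 to 127 CPM (5.92, 5.51 to 6.37); the libraries kept strand, but the counting mode is not given in the sources used here, and whether it holds reads of Txnip was not tested. Foxo3 rose by 0.81, Insr, the insulin receptor, by 0.57 and Igfbp1, which binds IGF-I, by 0.72, whereas Irs2, Foxo1 and Sesn3 were at 0.14, 0.12 and 0.05 and were not called. Igf1 fell from 21.8 to 13.4 CPM. In the growth hormone list the STAT5 feedback genes Cish and Socs3 fell by 0.94 and 0.85 on the log2 scale and Igfbp5 from 589 to 295 CPM, while the STAT5 antagonist Bcl6 rose from 16.1 to 44.0 CPM; the list as a whole had 2 rises and 4 falls in 12.

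Most genes of sterol synthesis were lower in the fasting library. Of 25 genes of cholesterol synthesis and uptake, 16 fell and none rose (14 fell with TMM factors or DESeq2 size factors), the median was -0.70, and 5 passed the stricter call. Idi1, isopentenyl-diphosphate isomerase, fell from 58.4 to 12.5 CPM (-2.23, -2.41 to -2.05) and Msmo1, methylsterol monooxygenase, from 50.3 to 12.9 CPM (-1.96). Mvk, Mvd, Sqle and Dhcr7, enzymes spread from the early to the last steps, fell by 1.14, 0.94, 0.89 and 0.87 on the log2 scale. Srebf2, the factor that drives the pathway, fell from 75.8 to 46.8 CPM, and Insig1, which holds it in the endoplasmic reticulum, from 89.5 to 57.0 CPM. The synthase Hmgcs1 was at -0.41 and missed the fold threshold, as did Cyp51 at -0.22. Ebp alone was above 0, at 0.26. Fdps fell on few reads (62 to 41 counts), and reads shared with pseudogenes may have been lost there.

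SREBP factors bind sterol regulatory elements, searched for here as TCACNCCAC on both strands without mismatch. Of 17 cholesterol genes with a promoter window, 1 held it, against 1.44% of all genes with a window (1.24% of windows). This was Hmgcs1 (GRCm38.p6 chr13:119690101-119690400, plus strand), with the element in capitals 137 bases before the start.
Hmgcs1: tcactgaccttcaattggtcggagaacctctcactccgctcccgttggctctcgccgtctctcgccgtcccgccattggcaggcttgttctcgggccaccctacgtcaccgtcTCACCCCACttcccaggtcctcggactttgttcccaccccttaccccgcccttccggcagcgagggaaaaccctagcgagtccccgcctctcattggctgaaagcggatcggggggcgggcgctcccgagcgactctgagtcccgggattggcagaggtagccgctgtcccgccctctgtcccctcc
Fewer genes of fatty acid synthesis were called, with 6 of 17 falling and none rising (median -0.12). Srebf1, the isoform gene for fatty acid synthesis, fell from 81.3 to 28.6 CPM (-1.51), the desaturase Scd2 from 163 to 77.1 CPM, Fasn, fatty acid synthase, from 227 to 139.6 CPM, and Acaca, which makes malonyl-CoA, from 72.1 to 45.2 CPM. Scd1, Acss2 and Me1 were at 0.05, -0.02 and -0.08 and were not called. Mlxipl, the carbohydrate-sensing factor ChREBP, was at 124 and 126 CPM.

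**Figure D3:**
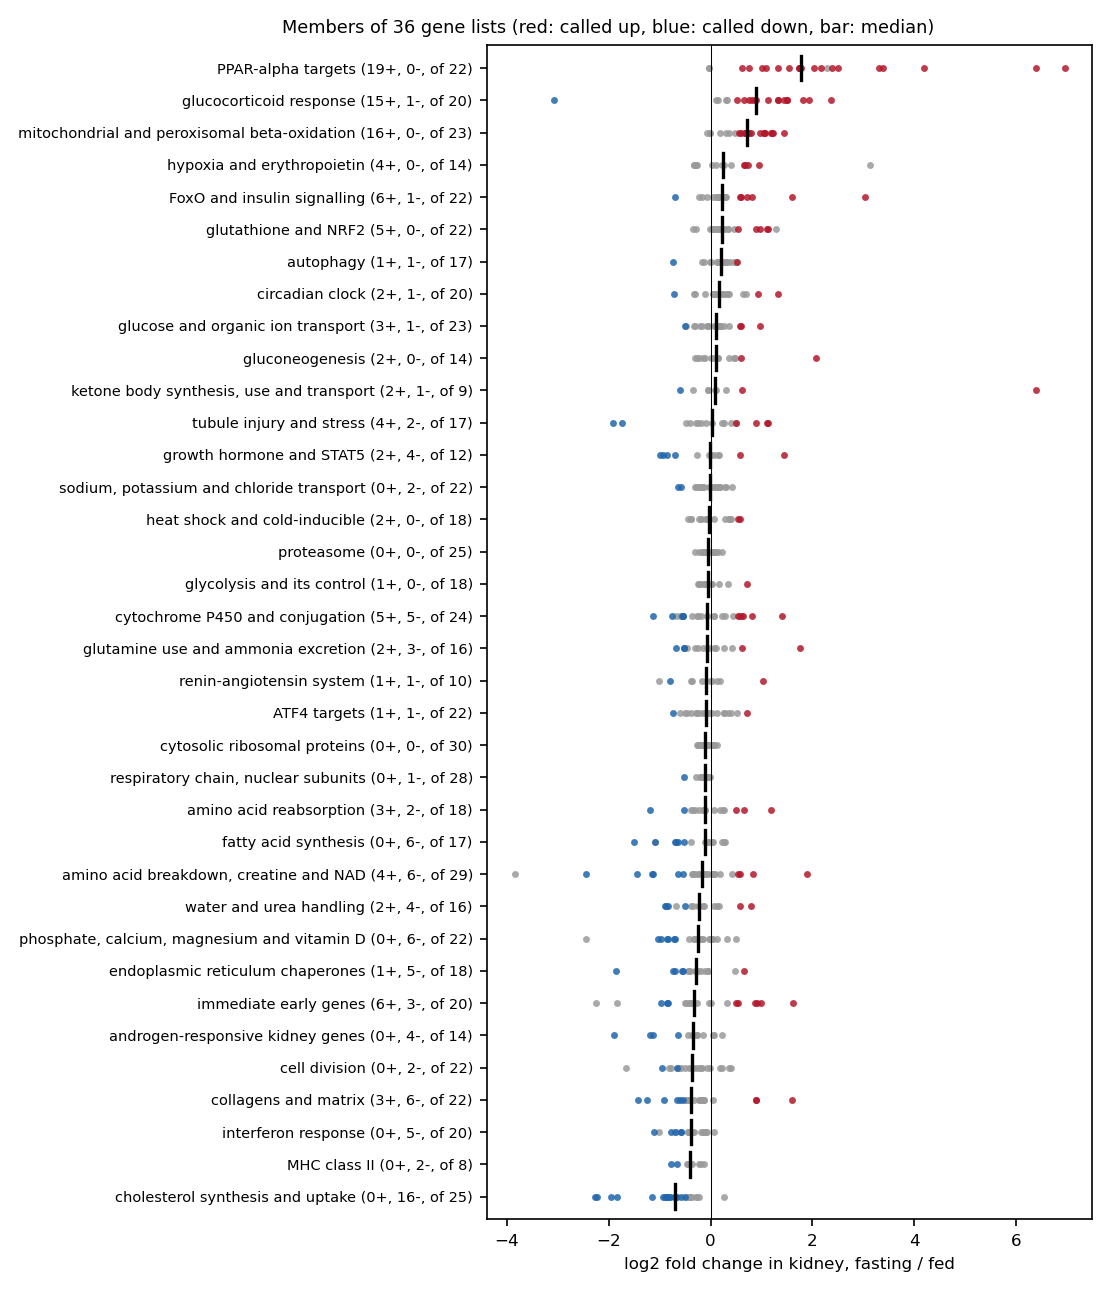
Log2 fold change (fasting over fed) of each member of 36 gene lists in kidney, ordered by the list's median (bar), with the number called up (+) and down (-) of all members beside each name. PPAR-alpha targets, glucocorticoid response and beta-oxidation lie at the top, cholesterol synthesis and uptake at the bottom, and the proteasome and ribosomal protein lists sit close to 0.

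Amino acid, polyamine and NAD metabolism held several of the largest single falls. Acmsd, the enzyme that draws tryptophan breakdown away from NAD synthesis, fell from 194 to 35.4 CPM (-2.45, -2.56 to -2.35); at 18.6 CPM in the fed liver, its level there was below that in kidney. Nampt, the first enzyme of NAD salvage, rose from 188 to 282 CPM, and Qprt, which makes NAD precursors from quinolinate, fell by 0.54 on the log2 scale. Gatm, which carries out the first step of creatine synthesis, fell from 673 to 247 CPM (-1.45). Bcat1, a branched-chain aminotransferase, fell from 111 to 49.9 CPM, and Ass1, which builds arginine from citrulline, from 1808 to 1161 CPM. Hpd, of tyrosine breakdown, rose from 39.2 to 69.8 CPM. Across the list of 29 genes, 4 rose and 6 fell (5 with TMM factors or DESeq2 size factors). Most members, among them Aass, Hgd, Fah and Bckdha, had no call.

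Odc1, ornithine decarboxylase and the entry to polyamine synthesis, fell from 1180.5 to 316 CPM (-1.90, -1.94 to -1.87). It is a classic androgen-responsive gene of the mouse kidney, and the other genes of that kind did not share the size of its fall: of 14, 4 fell and none rose, the others being Cyp2j13 (-1.13), Slc7a12 (-1.19) and Aoc1 (-0.64). Kap, the best known of them, had a log2 fold change of -0.14 and was not called, and Cyp4b1, Slc7a13 and Acsm3 were at -0.28, -0.34 and 0.04. Hsd3b2, a steroid dehydrogenase gene with close copies, fell from 159 to 40.9 CPM.

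Among the remaining largest falls, Mfsd2a, the carrier of lysophosphatidylcholine with omega-3 fatty acids, went from 56.6 to 9.78 CPM (-2.53, -2.73 to -2.34), the deepest fall among called genes above 10 CPM. The predicted gene Gm853 fell from 88.3 to 24.2 CPM. Among called genes, the losses in CPM were led by Slc34a1, followed by CT010467.1 (3414 to 2035 CPM), Gm26917 (3696 to 2514 CPM), Atp11a, a phospholipid flippase (3003 to 1983 CPM), and Acy3, an aminoacylase (2122 to 1196 CPM). CT010467.1 carries a clone name and Gm26917 a predicted-gene name, and which RNA their reads came from was not tested. Kcnip2, a potassium channel partner best known from heart, rose from 32 to 373 counts (3.33).

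Mineral transport genes included falls but no rise on library totals. Of 22 genes for phosphate, calcium, magnesium and vitamin D, 6 fell and none rose, with a median of -0.25, and none passed the stricter call; Trpm6, at 0.50, was called up with TMM factors. Slc34a1, listed with sodium transport, fell from 5066 to 3266 CPM (-0.63, -0.65 to -0.62), and its relative Slc34a3 from 52.9 to 29.6 CPM (-0.84). Kl, the co-receptor for the phosphate hormone FGF23, fell from 942 to 578 CPM (-0.70), and Cyp24a1, which inactivates vitamin D, from 162 to 99.0 CPM (-0.71). In the distal tubule, where calcium is recovered through the cell, the channel gene Trpv5 fell from 15.2 to 7.72 CPM, the buffer Calb1 from 259 to 143 CPM and the exchanger Slc8a1 from 512 to 252 CPM, with log2 fold changes of -0.98, -0.86 and -1.03. Vdr, Cyp27b1, Casr and Pth1r were at 0.33, 0.13, 0.01 and -0.15 and were not called. Slc12a3, the marker of the distal convoluted tubule, was at 864 and 767 CPM. In RNA of bulk kidney tissue, fewer cells of a segment and less RNA per cell cannot be told apart.

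Water and hormone genes gave a mixed picture. Aqp2, the water channel under vasopressin control, fell from 147 to 80.9 CPM (-0.87), whereas Aqp3, Aqp4 and Avpr2 of the same principal cells were at -0.24, 0.07 and -0.34 without a call. Slc5a3, the myo-inositol carrier that guards against hypertonic stress, rose from 493 to 859 CPM, and Aqp7, the glycerol channel of the proximal tubule, from 23.5 to 35.2 CPM. Ren1, renin, fell from 42.1 to 24.1 CPM (-0.80), and its substrate gene Agt rose from 48.7 to 99.7 CPM (1.03). The converting enzyme gene Ace was at -0.01. The main sodium carriers Slc9a3, Slc12a1 and Slc12a3 had log2 fold changes of -0.30, 0.42 and -0.17 and none was called. Slc9a8, a sodium-proton exchanger of the proximal brush border, fell from 231 to 93.6 CPM (-1.31).

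In each nephron segment most markers were not called. None of the 8 podocyte and 8 endothelial markers was called. In the first segments of the proximal tubule 2 of 8 fell, Slc34a1 and Gatm, and in its last segment 2 of 8 rose, Cyp7b1 (0.54) and Slc5a10 (0.92). The receptor Lrp2 and the sodium-bicarbonate carrier Slc4a4 of the proximal tubule were at -0.25 and 0.06. In the thin limb 2 of 6 fell, the urea carrier Slc14a2 (-0.51, not called with TMM factors) and Fst, follistatin (-1.22). In the distal convoluted and connecting tubule 2 of 8 fell, Trpv5 and Calb1, and of the 8 principal cell markers 1 fell, Aqp2. In the thick ascending limb Umod, uromodulin, was at 4055 and 4634 CPM, Egf rose from 2368 to 3415 CPM (0.53) and the prostaglandin receptor Ptger3 fell (-0.68). Of the intercalated cell markers 3 of 8 fell, by 0.66 for Slc4a1, 0.52 for Slc26a4 and 0.52 for Atp6v1g3, and 1 of the 3 was still called with TMM factors.

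**Figure D4:**
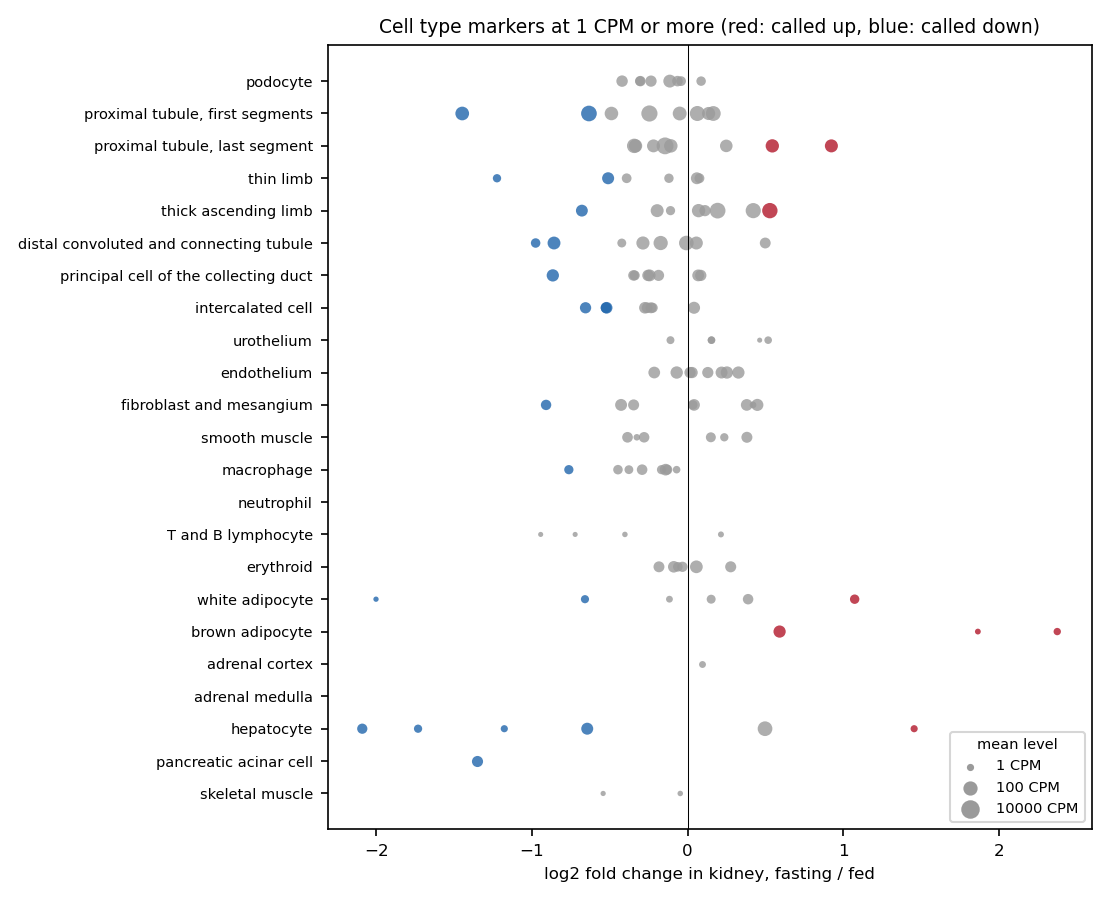
Log2 fold change (fasting over fed) of cell type markers that reached 1 CPM in either kidney library, by cell type, with point size for mean CPM. Most markers of kidney cells lie between -0.5 and 0.5, and the called points farthest from 0 are traces of hepatocyte, white adipocyte and brown adipocyte genes with small points.

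Matrix, chaperone and immune genes leaned downward. Of 22 matrix genes, 6 fell and 3 rose (median -0.37): the fibrillar collagens Col1a1 and Col3a1 fell from 29.4 to 15.6 CPM and from 84.6 to 35.7 CPM, and the basement membrane collagen Col15a1 from 34.3 to 12.8 CPM, while Lox, the crosslinking lysyl oxidase, rose from 6.01 to 18.4 CPM and Ccn2, connective tissue growth factor, from 74.7 to 139 CPM. Of 18 chaperones of the endoplasmic reticulum, 5 fell (3 with DESeq2 size factors), and Herpud1 alone rose (0.66; 2 rose with TMM factors or DESeq2 size factors). Sdf2l1 fell from 9.76 to 2.68 CPM and Calr, calreticulin, from 724 to 445 CPM, but Hspa5, the central chaperone BiP, was at -0.31 without a call. Of 20 interferon-responsive genes, 5 fell and none rose, with Igtp, a GTPase, going from 21.2 to 9.78 CPM. The 8 macrophage markers were all below 0, and C1qb alone was called (-0.76).

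Stress and detoxification genes included a few distinct rises. Hmox1, heme oxygenase, rose from 20.5 to 44.1 CPM and Nqo1, a target of NRF2, from 76.7 to 168 CPM, whereas Gclc and Gclm of glutathione synthesis were at 0.15 and 0.16. Of 17 genes of tubule injury and stress, 4 rose, Hmox1 and Lcn2 among them, and 2 fell, among them Fgb. The injury markers Havcr1 (KIM-1) and Spp1 were at -0.40 and -0.24 without a call, and Lcn2 went from 43 to 92 counts, which was a call. Of 20 immediate early genes, 6 rose and 3 fell: Myc rose from 3.96 to 12.1 CPM and Klf4 from 5.39 to 10.7 CPM, while Fos, Egr1 and Nr4a1 fell by 0.96, 0.85 and 0.83 on the log2 scale. Cyp2d9 rose from 133 to 349 CPM, and in the 24 genes of drug metabolism 5 rose and 5 fell on library totals, against 6 and 2 with DESeq2 size factors. Per2 joined Per1 among the 2 clock genes that rose (4 with TMM factors or DESeq2 size factors), at 0.94, and Npas2 fell (-0.73), with Arntl, Nr1d1 and Dbp at -0.32, -0.10 and -0.31. Housekeeping groups showed almost no calls: none of 30 ribosomal proteins and none of 25 proteasome subunits, and 1 of 28 nuclear subunits of the respiratory chain, Cycs at -0.53. The Cycs call was lost with TMM factors and with DESeq2 size factors. The medians of these lists were -0.10, -0.04 and -0.11.

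The fasting response of kidney was then set beside that of the other 7 tissues. A model over the 16 libraries (edgeR's quasi-likelihood test, tissue, fasting and a kidney-by-fasting term) took the spread from how differently the 7 other tissues responded, with 6 residual degrees of freedom. By the study's methods the tissues came from the same 3 mice per condition, so the 7 tissues that stand as replicates share animals, and the p-values, standard errors and counts of calls take no account of that. No gene of 23580 (0%) passed a Benjamini-Hochberg adjusted p of 0.05. An unadjusted p below 0.05 was found for 474, fewer than that threshold would give on average with no kidney difference at all. A DESeq2 Wald test of the same term called 13 of 14437 genes, 6 of them higher and 7 lower in kidney than the shared response, among them Slc25a25, the peroxisomal fatty acid importer Abcd3 (0.72 in kidney), Acmsd, Ppard and Slc9a8, and also the hepatic genes Ahsg and Cyp3a11, whose traces were described above, and Hpx. Because no gene passed the edgeR test, the values that follow are given as a description of these libraries.

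Cyp4a14, with a kidney log2 fold change of 6.96, lay above all 7 others (-0.10 to 4.07, highest in liver). Pdk4, Angptl4 and Cyp4a10 did not stand apart: their folds in kidney, 4.19, 3.38 and 3.30, were within the ranges elsewhere, 0.63 to 4.24, 0.32 to 4.25 and -0.54 to 3.77. Pck1 in kidney matched the top of the other tissues (2.08 against -0.29 to 2.16, highest in liver), and Ehhadh lay below the liver value alone (1.78 against -0.04 to 2.58). Slc25a25 rose in kidney (2.39) and ranged from -0.90 to 0.84 elsewhere, with a kidney term of 2.57 (SE 0.53, edgeR adjusted p = 1). Kcnip2, at 3.33 against 0.09 to 1.29, had the lowest adjusted p of the named genes, 0.123 by the same edgeR test.

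Of the falls, Ppard stood at -1.92 in kidney against -0.25 to 0.28 in the other 7 tissues, with a kidney term of -1.88 (SE 0.28, edgeR adjusted p = 0.184). Slc9a8 showed the same pattern, -1.31 against -0.26 to 0.36. Acmsd fell by 2.45 in kidney and stood at 0.22 in liver, the other tissue with more than 1 CPM of it. Odc1 fell in kidney to -1.90 and ranged from -0.29 to 1.94 elsewhere. Mfsd2a fell in kidney and stood at 4.42 in liver and 4.19 in brown adipose tissue. Of the sterol genes, Idi1 and Msmo1 were below 0 in all 7 other tissues, at -3.48 to -0.03 and -2.66 to -0.66, and kidney lay inside each range. Txnip and Sgk1 were above 0 in all 7 as well, at 0.80 to 2.34 and 0.14 to 1.61. Thus Idi1, Msmo1, Txnip and Sgk1 each had 1 sign in all 8 tissues of this series. The kidney values of Sgk1, Odc1, Ppard, Slc9a8, Slc25a25, Kcnip2 and Cyp4a14 lay outside the range of the others. Many of the genes compared were named for a large kidney change, so a place at the edge is partly built in. It does not show a response particular to kidney.

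**Figure D5:**
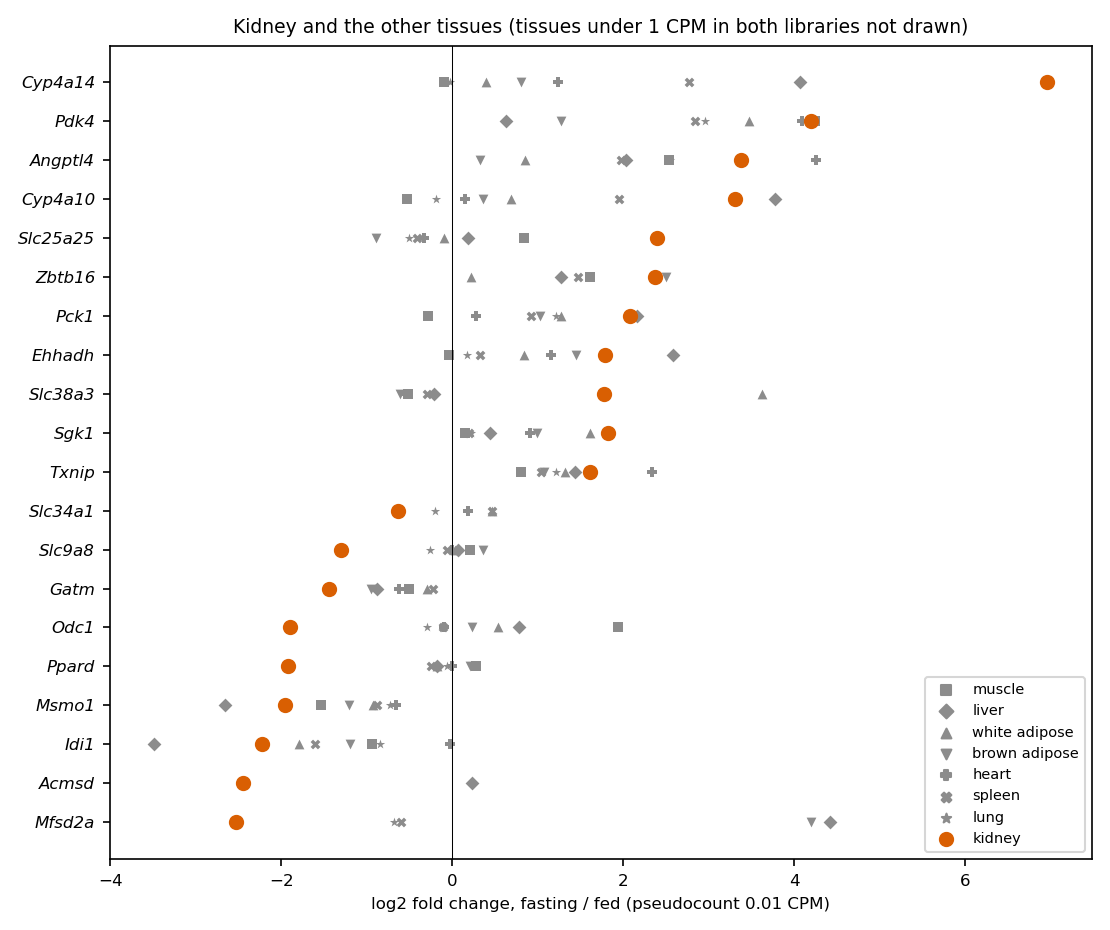
Log2 fold change (fasting over fed) of 20 genes in kidney (orange) and in each other tissue with at least 1 CPM of the gene (grey symbols), 1 library per tissue and condition. Cyp4a14 and Slc25a25 in kidney lie to the right of every other tissue drawn, and Ppard and Slc9a8 to the left.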

How the data were processed

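RNA-Seq was made from total RNA of pooled tissue powder with a strand-specific Illumina protocol. Per the labels and the study's methods, the authors used fastp 0.23.2 and FastQC 0.11.8 for read quality, HISAT2 2.2.1.0 for alignment (GRCm38) and featureCounts of Subread 2.0 for counting on a GENCODE annotation, and deposited raw read counts per gene for the 16 libraries, with no normalization. How reads on several copies or on the opposite strand were counted is not given in the sources used here, and read counts without molecular identifiers are not independent molecules. The deposited table also gives the length of each gene, which entered no result.

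From the counts of 55385 genes (55144 IDs matched to a symbol), CPM, log2 fold changes with a pseudocount of 0.01 CPM, exact 95% counting intervals and two-sided Fisher's exact tests were computed for kidney (scipy 1.17.1); depth limits a gene without a count to 0.134 CPM (fed) and 0.116 CPM (fasting) by 3 counts. Genes were called at p below 0.01 and a log2 fold change beyond 0.5. The other tissues entered an edgeR 4.0.16 quasi-likelihood fit (R 4.3.3, TMM factors, genes kept by filterByExpr), in which the 7 other tissues stand as replicates. Both steps were tested on simulated data. For the kidney calls these had no spread between mice, and for the fit over all tissues less spread than was fitted here. They therefore check the code and not how either step performs on these libraries. Alternatives were TMM and DESeq2 1.42.0 size factors, totals without the 10 highest genes, a pseudocount of 1 CPM, a filter at 1 CPM, adjusted p, a log2 threshold of 1 and the edgeR exact test at a preset coefficient of variation (0.2 or 0.4).

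Named were the 10 largest rises and 10 largest falls among calls that reached 10 CPM, the 5 largest gains and 5 largest losses in CPM, the kidney markers Kap and Slc34a1, and of each list the members with the highest level or the largest called change. Some genes that this rule selects are not reported here. The comparison, its named members and the 59 gene lists were chosen with earlier results of these data known. Promoter windows came from RefSeq on GRCm38.p6.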

Additional observations from a re-analysis of the deposited data

Results flagged for a closer look

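Of the 25 reported genes named for the size of their change or as kidney markers, 17 had at least 1 CPM in every tissue, and for these the 8 fold changes were examined for a value that stood apart from the rest by Dixon's ratio of gap to range. Kidney was the value that stood apart for 1 gene, Ppard. Chance alone flags about 1 in 20 groups when any of the 8 tissues may stand apart, a rate that does not hold for kidney in genes named for the size of their kidney change. Ppard had -1.92 in kidney, with -0.25 in the next tissue and 0.28 in the highest.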

How the results depend on the processing

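The 1867 kidney calls (772 up, 1095 down) stayed within 1.5 times of that number under TMM factors, DESeq2 size factors, totals without the 10 highest genes, a pseudocount of 1 CPM, a filter at 1 CPM and adjusted p. They fell to 716 (324 up, 392 down) at a log2 threshold of 1, to 367 (173 up, 194 down) with an assumed coefficient of variation of 0.2 and to 46 (24 up, 22 down) with 0.4, which shows how far the number of calls rests on a spread between mice that was not measured. Of the 166 called genes named in the text, 156 remained called with TMM factors and 155 with DESeq2 size factors. With a pseudocount of 1 CPM 164 remained, and without the 10 highest genes 165. At a coefficient of variation of 0.2 the number was 73, and at 0.4 it was 18. No direction changed, but this was nearly fixed in advance. The assumed coefficients of variation keep the fold changes, the scalings shift nearly all genes alike, and the pseudocount keeps their sign. For the kidney term against the other tissues, edgeR called 0 genes, also on library totals and with robust dispersion; without the expression filter it called 3, among them Kcnip2, the DESeq2 Wald test called 13, and leaving out 1 other tissue at a time called 0 to 2, namely Kcnip2 without muscle, Gm15441 without liver, and Kcnip2 with 1 other gene without white adipose tissue. Of 236 list medians under another scaling or pseudocount, 223 moved by at most 0.1, and the rest moved by more, all but 1 of them with a pseudocount of 1 CPM, among them PPAR-alpha targets (1.62) and hepatocyte markers (-0.73). The largest shift was 2.385. A change of scaling moves nearly all genes alike and by little, so its medians could hardly pass 0.1. No paired analysis was possible because each group had 1 library, apart from the fit over the 16 libraries, which compares fed with fasting within each tissue. Depth limits statements on genes of a few counts, such as Fgf21, Epo and Tat.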

Other observations

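Most of the listed transport genes of the proximal tubule outside mineral handling were not called. Of 23 carriers of glucose and organic ions 3 rose: Abcc4, an exporter of organic anions, from 65.7 to 129 CPM (0.97), Slc2a5, the fructose carrier, from 71.6 to 109 CPM, and Slco4c1 from 62.9 to 93.9 CPM. Slc17a3 fell (-0.50), a call lost with TMM factors and with DESeq2 size factors. The sodium-glucose carriers Slc5a2 and Slc5a1 were at -0.49 and 0.07 without a call. Of 18 genes of amino acid reabsorption 3 rose and 2 fell (1 with TMM factors). Slc36a2 went from 32 to 84 counts, and the taurine carrier Slc6a6 rose from 542 to 767 CPM. The main carriers of neutral and basic amino acids, Slc6a19 and Slc3a1, were at -0.13 and 0.07 and were not called.

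Among 14 genes known to respond to low oxygen, 4 rose and none fell: Adm, adrenomedullin, from 5.03 to 9.70 CPM, the mitophagy receptor Bnip3 from 128 to 214 CPM, the kinase Pdk1 from 57.1 to 91.6 CPM and the prolyl hydroxylase Egln3 from 12.7 to 19.9 CPM. Vegfa and Slc2a1 were at -0.32 and -0.33, and Epo had 0 and 2 counts. Of 17 autophagy genes Gabarapl1, which builds the autophagosome, rose from 696 to 999 CPM, Sqstm1 was at 0.50 and missed the threshold, and Tfrc, the transferrin receptor, fell from 163 to 98.1 CPM; 3 of the 17 were called up with TMM factors in place of 1. Of 22 cell division genes Mki67 and Top2a fell (-0.66 and -0.95) at levels under 10 CPM. The small cytoplasmic RNA gene Rn7s2 rose from 211 to 738 CPM while Rn7sk was at 11179 and 11525 CPM.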
